A study of Trichoderma reesei with 6 samples.

Results

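Expression of 6 amino acid transporter genes of Trichoderma reesei was followed over growth on lactose, glucose and glycerol. They were a LysP transporter (TRIRE2_66819), a pair of PotE transporters (TRIRE2_104077 and TRIRE2_56314), a GABA permease (TRIRE2_70098), an amino acid permease without a further name (TRIRE2_123611) and a neutral amino acid transporter (TRIRE2_123718), 6 of the 9126 features on the array. The genes were selected on their measured differences between lactose and the other carbon sources: all belong to the 22 amino acid transporters that the study annotated among the genes more than 2-fold different on lactose from glucose and from glycerol. Their lactose differences are therefore given as a description, with no test. The strain was QM9414, an early mutant of T. reesei that overproduces cellulases, grown as mycelium in shake flasks with 10 g/l of one carbon source and no other genetic change. Per the sample labels, lactose cultures were harvested after 28 h and glucose and glycerol cultures after 24 h, whereas the methods of the study give 24 h for all, so that by the labels the carbon source and the time of growth cannot be told apart. The study places the harvest in the early phase of growth, defined by the share of the carbon source consumed. Its methods describe shake flask cultures in general as pregrown on glycerol and then transferred. Each carbon source was measured on 2 single-colour arrays, and the values are log2 signals, 1 per gene and array, so that a difference of 1 is a 2-fold change.

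Amino acid permeases of fungi are proton-driven carriers with many transmembrane helices, most of them in the amino acid/polyamine/organocation superfamily. They bring in amino acids as a source of nitrogen, carbon and building blocks, and in yeasts and filamentous fungi their genes commonly answer to the quality of the nitrogen source and to amino acids outside the cell. Annotation names such as LysP and PotE come from bacterial proteins, the lysine permease and the putrescine-ornithine antiporter of Escherichia coli, and tell the protein family rather than a substrate shown in T. reesei. GABA permeases, known from yeast and Aspergillus, import γ-aminobutyrate, which fungi can use as a nitrogen source.

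Signals over all features ran from 2.70 to 15.90, the array medians lay between 10.80 and 10.85, and the replicates of a carbon source correlated across genes with r between 0.996 and 0.998. The files hold no detection calls, so signals under a log2 value of 4.66, which is the lowest 10% of all signals, were taken as the low end of the array, where a fold change is imprecise. The labels speak of duplicate flasks and also of mixed mycelia, so the spread between 2 arrays, and with it every p-value here, may be technical in part.

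The LysP gene TRIRE2_66819 had log2 signals of 12.99 and 13.20 on lactose, 3.73 and 3.68 on glucose, and 6.13 and 6.55 on glycerol. The 3 carbon sources did not overlap: the gene was bright on lactose, at the low end of the array on glucose, and between them on glycerol. The mean on lactose was 9.38 ± 0.16 (log2 difference ± standard error of the limma fit, n = 2 arrays per group) above glucose, or 668-fold, and 6.75 ± 0.16 above glycerol, or 108-fold. With signals under the low end raised to it, an alternative chosen after the data were seen, the fold against glucose was 345 and that against glycerol was the same 108. The difference between glucose and glycerol was not itself a criterion for the choice of genes. It is not independent of the choice, since it follows from both lactose differences on the same arrays. Its p-values for the chosen genes are therefore descriptive. For LysP it was -2.63 ± 0.16, a 6.21-fold lower level on glucose (adjusted p = 3.42e-06, limma with Benjamini-Hochberg adjustment over all features). With signals raised to the low end, the level on glucose was 3.21-fold lower.

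**Figure D1:**
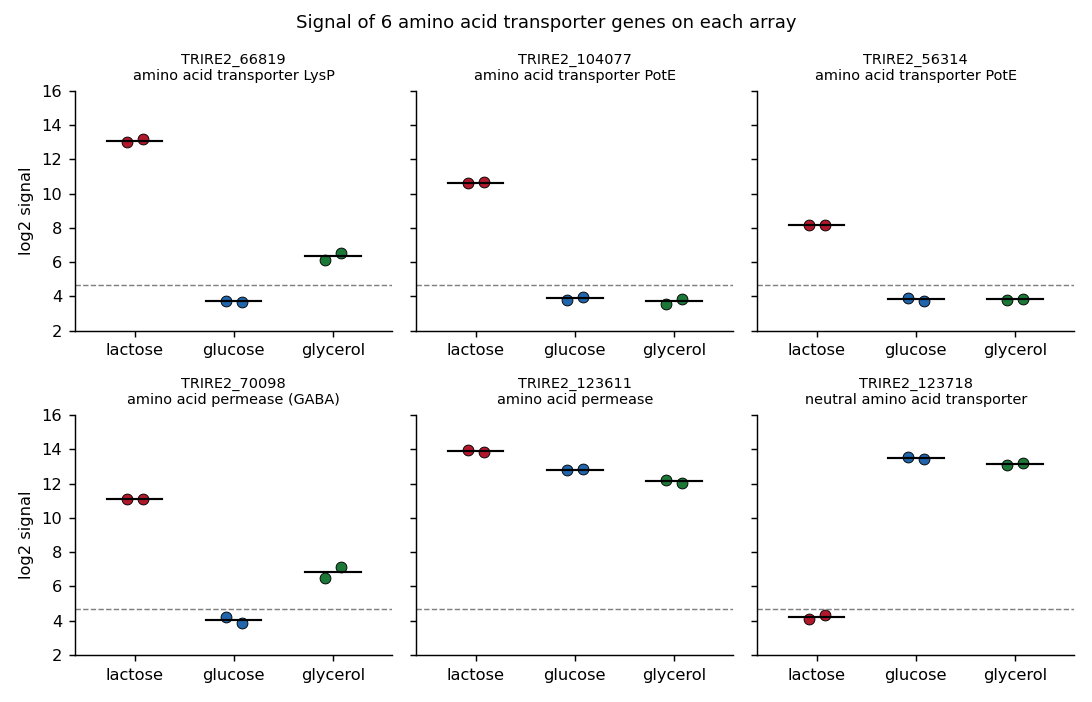
Log2 signal (vertical axis) of the 6 amino acid transporter genes on lactose, glucose and glycerol, with a point for each of the 2 arrays, a bar for their mean and a dashed line at the low end of the array (4.66). TRIRE2_66819 and TRIRE2_70098 show 3 separate levels, both PotE genes lie under the line on glucose and glycerol, and TRIRE2_123718 lies under it on lactose.

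The GABA permease gene TRIRE2_70098 followed the same order of carbon sources. Its log2 signals were 11.11 and 11.10 on lactose, 4.20 and 3.86 on glucose, and 6.50 and 7.14 on glycerol. Lactose arrays were highest, glucose arrays were at the low end, and glycerol arrays lay clear of both, with the widest spread of any group among the 6 genes (SD 0.45). The difference from glucose was 7.08 ± 0.21 (135-fold, or 87.1-fold with signals raised to the low end) and that from glycerol 4.28 ± 0.21 (19.5-fold). Glucose minus glycerol was -2.79 ± 0.21 on the log2 scale, a 6.93-fold lower level on glucose (adjusted p = 1.33e-05, limma). It was 4.48-fold lower with signals raised to the low end. LysP and the GABA permease were the only genes of the 6 called between glucose and glycerol, where a call needs more than 2-fold and an adjusted p under 0.05.

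Both PotE genes showed a signal above the low end on lactose alone. TRIRE2_104077 had log2 signals of 10.60 and 10.65 on lactose, 3.81 and 3.94 on glucose, and 3.56 and 3.84 on glycerol. TRIRE2_56314 was dimmer on lactose, at 8.15 and 8.18, with 3.92 and 3.74 on glucose and 3.79 and 3.84 on glycerol. All 8 non-lactose values of these genes lie at the low end of the array, and for each gene the glucose and glycerol arrays overlap. TRIRE2_104077 was 6.75 ± 0.13 above glucose (108-fold) and 6.93 ± 0.13 above glycerol (122-fold), and with signals raised to the low end it was 62.6-fold above either. For TRIRE2_56314 the differences were 4.33 ± 0.12 (20.1-fold) and 4.34 ± 0.12 (20.3-fold), and 11.3-fold with that floor. Glucose and glycerol differed by 0.18 ± 0.13 for TRIRE2_104077 (adjusted p = 0.336, limma) and by 0.014 ± 0.12 for TRIRE2_56314 (adjusted p = 0.939). Both values compare signals at the low end, where a difference may not be detectable.

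The permease gene TRIRE2_123611 was bright on every carbon source and had the smallest lactose differences of the 6. Its log2 signals were 13.94 and 13.83 on lactose, 12.77 and 12.84 on glucose, and 12.23 and 12.04 on glycerol. The 3 groups stand in the order lactose, glucose, glycerol without overlap. Lactose was 1.08 ± 0.12 above glucose (2.11-fold), close to the 2-fold limit of the study's list, and 1.75 ± 0.12 above glycerol (3.36-fold). The step from glycerol to glucose, 0.67 ± 0.12 or 1.59-fold, had an adjusted p of 0.00222 (limma) but stayed under 2-fold.

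The neutral amino acid transporter TRIRE2_123718 ran the other way. On glucose its log2 signals were 13.55 and 13.44 and on glycerol 13.10 and 13.21, against 4.08 and 4.32 on lactose. It was the single gene of the 6 at the low end of the array on lactose. Lactose minus glucose was -9.30 ± 0.13 on the log2 scale (629-fold lower on lactose) and lactose minus glycerol was -8.96 ± 0.13 (497-fold lower), or 457- and 361-fold with signals raised to the low end. Both glucose arrays were above both glycerol arrays, by a mean of 0.34 ± 0.13, which did not pass (adjusted p = 0.0675, limma).

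By their choice, 5 of the 6 genes were higher and 1 was lower on lactose than on both other carbon sources. Of all 9126 features, 10.2% were called higher and 7.28% lower on lactose by the same rule, more than 2-fold and an adjusted p under 0.05 in both comparisons, which share the lactose arrays. Of the 16 other amino acid transporters in the study's list, 10 were higher and 6 lower, again by the way the list was made. Over the whole list of 22 the higher genes ranged from 2.04- to 668-fold against glucose and from 2.26- to 122-fold against glycerol, and the lower ones from 2.80- to 718-fold and from 2.19- to 497-fold. These folds are from the unchanged signals, without raising any to the low end.

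**Figure D2:**
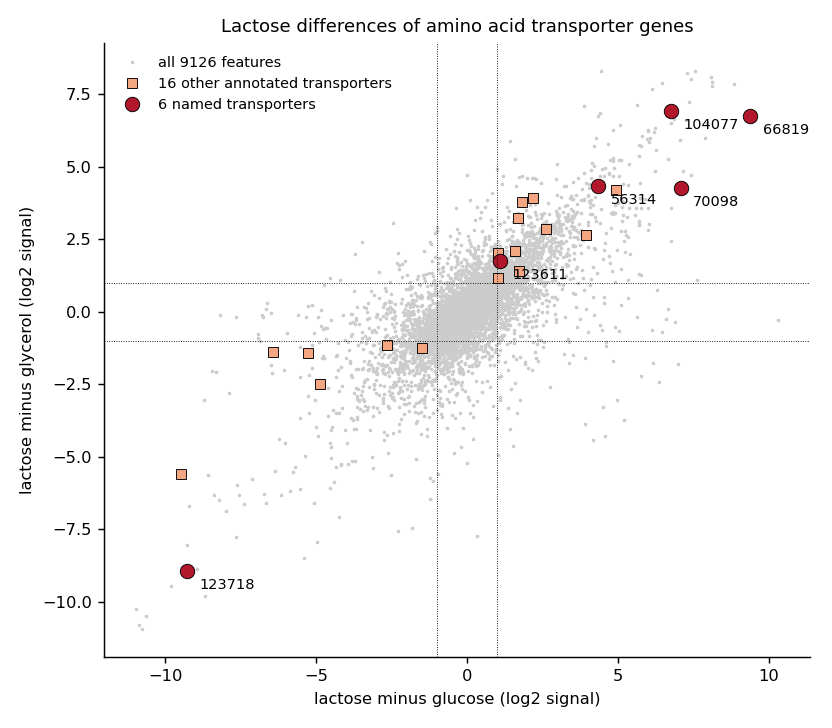
Log2 difference of lactose minus glucose (horizontal axis) and lactose minus glycerol (vertical axis) for all 9126 features (grey), the 6 named transporters (circles, labelled by protein ID) and the 16 other annotated ones (squares), with dotted lines at 2-fold. TRIRE2_123718 lies at the lower left with -9.30 and -8.96, while TRIRE2_66819 has the highest lactose minus glucose difference of the transporters, 9.38.

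Members of the same annotated family differed widely in size. A further LysP gene, TRIRE2_61114, was at 10.30 and 10.04 on lactose, 7.67 and 7.45 on glucose, and 7.04 and 7.58 on glycerol, or 6.11- and 7.26-fold higher on lactose, without the separation of glucose and glycerol that TRIRE2_66819 has. Of the further PotE genes, TRIRE2_59952 (30.4- and 18.3-fold) had mean signals at the low end of the array on glucose and glycerol, and was 16.9-fold above glucose with signals raised to it. TRIRE2_55723 (15.3- and 6.24-fold) had 1 of its 2 glucose arrays under the low end, and TRIRE2_62172, for which the annotation is marked as doubtful, was 3.32- and 2.63-fold higher. The other GABA permease gene, TRIRE2_58511, stood in a different order from TRIRE2_70098, with 12.27 and 12.12 on lactose, 10.43 and 10.30 on glucose, and 8.24 and 8.58 on glycerol. The gene annotated as Dip5, after the permease for acidic amino acids of Saccharomyces cerevisiae (TRIRE2_23415), had that order too, at 4.58- and 15.1-fold. Among the genes higher on lactose, the smallest differences were those of TRIRE2_121942 (2.04- and 2.26-fold). Its log2 difference from glucose was 0.92 without lactose replicate 2 and 0.94 without glucose replicate 2, both under the 2-fold limit. TRIRE2_64971 (2.04- and 4.11-fold) lost its call on lactose with quantiles normalized again, where its log2 difference from glucose was 0.93. It also lost this call in an ordinary linear model.

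Among the lower genes, TRIRE2_110316 came closest to TRIRE2_123718. It had log2 signals of 4.40 and 5.20 on lactose, 14.26 and 14.31 on glucose, and 10.23 and 10.55 on glycerol, so that lactose was 718-fold below glucose and 48.1-fold below glycerol. The first lactose array was under the low end, and with signals raised to it the folds were 657 and 44.0. TRIRE2_123718 was as bright on glycerol as on glucose within 0.34 log2 units, whereas TRIRE2_110316 fell by 3.90 ± 0.24 from glucose to glycerol. TRIRE2_121139 (29.2- and 5.69-fold lower on lactose), TRIRE2_82014 (38.6- and 2.65-fold) and TRIRE2_68831 (86.8- and 2.62-fold) were the next by the smaller of both differences. Of these, TRIRE2_82014 was at 3.58 and 3.74 on lactose, under the low end, and with signals raised to the low end its difference from glycerol was 1.33-fold, which ends its call.

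Between glucose and glycerol, 2 of the 6 genes were lower on glucose, LysP and the GABA permease, and 0 were higher, while 9.07% of all features were called lower and 8.49% higher on glucose. Of the 16 other transporters, 9 were higher on glucose, 1 was lower and 6 were not called. Of the 15 genes higher on lactose, 4 were higher on glucose than on glycerol (TRIRE2_58511, TRIRE2_23415, TRIRE2_109122 and TRIRE2_64971), 3 were lower (TRIRE2_66819, TRIRE2_70098 and TRIRE2_55723) and 8 were not called. Of the 7 genes lower on lactose, 5 were higher on glucose and 0 lower. Over all features, 7.64% of the 929 higher on lactose were higher on glucose than on glycerol and 15.0% were lower, and of the 664 lower on lactose 17.5% were higher on glucose and 12.2% lower. The difference between these shares and the transporters was not tested, because the list was chosen on the same arrays.

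**Figure D3:**
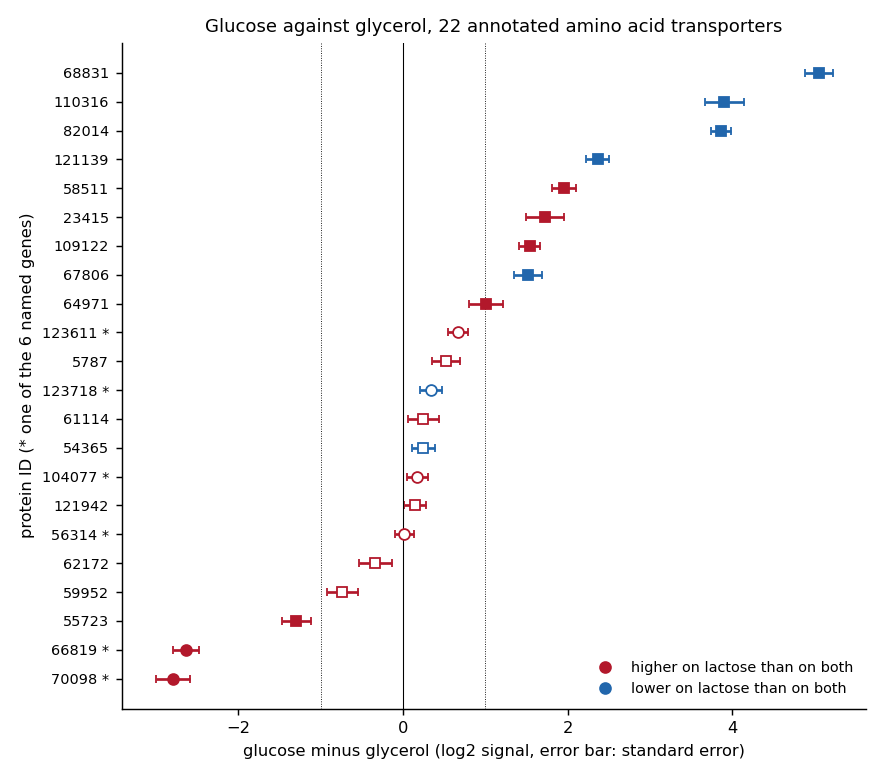
Glucose minus glycerol (log2, horizontal axis, with the standard error of the limma fit) for the 22 annotated amino acid transporters (vertical axis, protein ID, * for the 6 named genes), red for genes higher and blue for genes lower on lactose, filled where called and open where not, with dotted lines at 2-fold. The lower end holds TRIRE2_70098 and TRIRE2_66819 at -2.79 and -2.63, and the upper end holds TRIRE2_68831, a gene lower on lactose, at 5.05.

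The difference between glucose and glycerol was greatest for TRIRE2_68831, with log2 signals of 11.62 and 11.68 on glucose, 6.41 and 6.79 on glycerol, and 5.39 and 5.03 on lactose, a fall of 5.05 ± 0.17 from glucose to glycerol (adjusted p = 1.33e-07, limma). TRIRE2_110316 (14.9-fold) and TRIRE2_82014 (14.5-fold) were next. TRIRE2_55723, with 5.69 and 5.94 on glycerol against 4.73 and 4.30 on glucose, was 2.46-fold lower on glucose (adjusted p = 0.000453), in the direction of LysP and the GABA permease. With signals raised to the low end TRIRE2_55723 was 2.17-fold lower on glucose. The call of TRIRE2_64971 rested on 2.01-fold, and without glycerol replicate 1 its log2 difference was 0.64. In an ordinary linear model, which shares no variance between genes, TRIRE2_64971 (adjusted p = 0.108) and TRIRE2_23415 (adjusted p = 0.0513) lost their calls, leaving 8 of the 10 in the other list. Without glycerol replicate 1 TRIRE2_59952 was called lower on glucose, at -1.01.

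Amino acid synthesis was represented by the 4 features whose RefSeq symbol fits a list of amino acid gene names: arg2, asn1, met2 and trp. None of the 4 was called on lactose against both other carbon sources (0 higher, 0 lower by limma with Benjamini-Hochberg adjustment) or between glucose and glycerol (0). With 10.2% of all features called higher and 7.28% lower on lactose, and 8.49% and 9.07% called between glucose and glycerol, a count of 0 among 4 genes is near the background. The asparagine synthetase gene asn1 (TRIRE2_79037) had the largest difference, with a lactose level 2.67-fold under glucose and 1.71-fold under glycerol, so that it passed 2-fold in 1 comparison only.

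In the order of RefSeq genes on the QM6a assembly, the PotE genes TRIRE2_56314 and TRIRE2_104077 lie 12 genes apart on the same sequence, the closest pair among the 22 transporters; the next pair, TRIRE2_5787 and TRIRE2_82014, lies 29 genes apart. Of the 11 genes between the PotE genes, 5 were higher and 1 was lower on lactose than on both other carbon sources, beside the 10.2% and 7.28% of all features given above. The higher ones were the xylose transporter gene TRIRE2_104072 (26.3-fold against glucose and 37.8-fold against glycerol), an MFS transporter gene (TRIRE2_56684, 16.9- and 13.4-fold), an aspartate racemase gene, for an enzyme that interconverts the mirror forms of aspartate (TRIRE2_104073, 7.79- and 3.63-fold), a dehydrogenase gene (TRIRE2_56840, 4.58- and 3.68-fold) and a gene for an unknown protein (TRIRE2_2499, 2.01- and 5.39-fold). Placed 7 genes before TRIRE2_56314 lies the endoglucanase gene cel5a (TRIRE2_120312), 163- and 152-fold higher on lactose. It was at the low end on glucose and glycerol, as TRIRE2_56684 was, and with signals raised to the low end the folds were 52.3 for cel5a and 5.02 for TRIRE2_56684 against either carbon source. TRIRE2_104072 and TRIRE2_2499 were at the low end on glycerol, and with signals raised to it their folds against glycerol were 27.9 and 5.04. Genes directly beside the PotE genes had other patterns: TRIRE2_57015, next to TRIRE2_56314, was 23.3-fold lower on lactose than on glucose but 2.26-fold higher than on glycerol, and of the genes on either side of TRIRE2_104077, TRIRE2_56646 was 3.48-fold higher on lactose than on glycerol but 1.76-fold higher than on glucose, while TRIRE2_2501 was called in neither comparison.

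**Figure D4:**
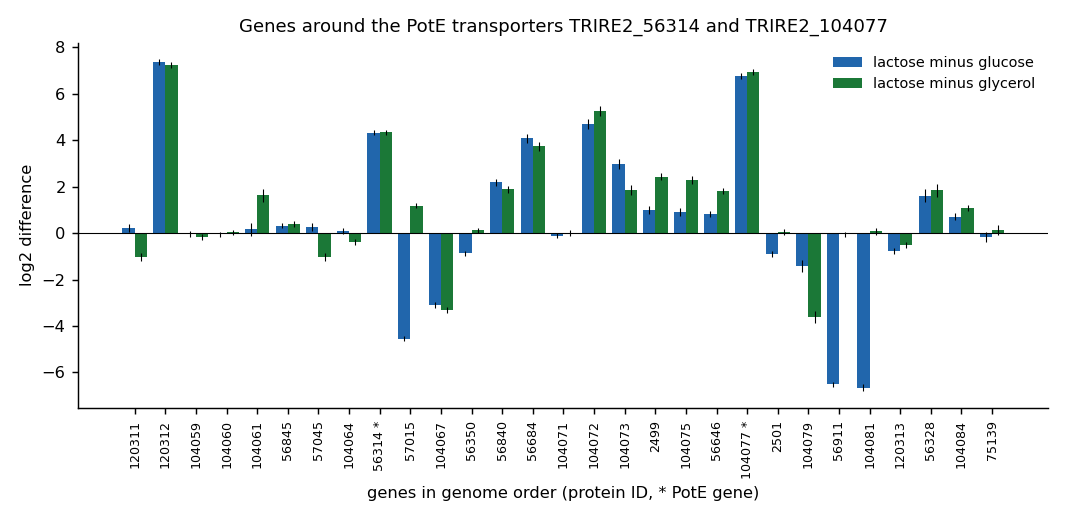
Log2 difference of lactose minus glucose (blue) and lactose minus glycerol (green), with standard errors, for 29 genes in genome order around both PotE genes (*), from 8 genes before TRIRE2_56314 to 8 after TRIRE2_104077. High bars at the PotE genes are separated by genes of either direction, and the endoglucanase gene TRIRE2_120312 reaches 7.35 and 7.25.

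LysP TRIRE2_66819 lies beside the endoglucanase gene cel12a (TRIRE2_123232), which was 72.6- and 73.6-fold higher on lactose, or 28.9-fold against either with signals raised to the low end. All 4 nearest genes of LysP were higher on lactose than on both other carbon sources, the others being con-10, a gene named for conidiation (TRIRE2_5084, 18.5- and 52.7-fold), a subtilisin-like protease gene (TRIRE2_123234, 4.85- and 5.46-fold) and an unknown gene (TRIRE2_30166, 6.62- and 5.38-fold). The protease gene was at the low end on glucose and glycerol, and with signals raised to it both of its folds were under the 2-fold limit for a call. Unlike LysP, cel12a had nearly equal signals on glucose and glycerol, with a difference of 0.020 ± 0.11 on the log2 scale (adjusted p = 0.912, limma), and on both its signals were at the low end of the array. The permease TRIRE2_123611 had 3 higher genes among its 4 nearest, including a calcium transporter gene (TRIRE2_68169, 6.63- and 3.73-fold), although the means of another, TRIRE2_111058 (2.02- and 2.19-fold), were at the low end of the array on every carbon source. For the GABA permease and for the neutral transporter, 0 of the 4 nearest genes were called against both other carbon sources, although TRIRE2_124051 beside the GABA permease was 12.1-fold higher on lactose than on glycerol and TRIRE2_123720 beside the neutral transporter 2.46-fold higher than on glucose. Over the 6 transporters, 7 of 24 nearest genes were higher and 2 lower, beside 10.2% and 7.28% of all features, with no test, since neighbours were looked up for genes that had been selected. Of these 9, TRIRE2_123234, TRIRE2_111058 and the lower expansin gene TRIRE2_104079 (1.26-fold against glucose) were under 2-fold with signals raised to the low end.

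Likeness of pattern was measured as the Euclidean distance between log2 signals, each gene centred on its mean over the 6 arrays, and is a description over 3 carbon sources. Signals were not raised to the low end for this measure. Distances of genes with signals there, among them TRIRE2_104077, cel5a and LysP, rest in part on imprecise values. Closest to TRIRE2_104077 were the MFS permease gene TRIRE2_3405, which the study took up as a lactose permease (distance 0.46), the GH3 ß-xylosidase gene TRIRE2_121127 (0.53) and cel5a (0.68). LysP had no close match: its nearest genes were a gene for a GH43 glycoside hydrolase (TRIRE2_3739, 1.55), the cellobiohydrolase gene cel7a (TRIRE2_123989, 1.59) and the MFS permease TRIRE2_105260 (1.73). By the qPCR ratios of the study, TRIRE2_3405 was higher on lactose than on glucose, but TRIRE2_105260 was not. TRIRE2_56314 lay nearest to an alcohol dehydrogenase gene (TRIRE2_68590, 0.15), a GH76 α-1,6-mannanase gene (TRIRE2_122495, 0.20) and a GDP-mannose transporter gene (TRIRE2_67494, 0.29). The GABA permease had an MFS transporter gene (TRIRE2_76897, 0.58), a Zn2Cys6 regulator gene (TRIRE2_65854, 0.68) and a flavin-containing monooxygenase gene (TRIRE2_76230, 0.79) nearest to it. Those nearest to TRIRE2_123611 were TRIRE2_122324, TRIRE2_2521 and TRIRE2_74971 (0.20 to 0.25), and those nearest to TRIRE2_123718 were TRIRE2_123086, TRIRE2_105156 and TRIRE2_108232 (0.45 to 1.11), with no function given for any of these 6. None of the 6 transporters was among the 3 nearest genes of another, and the closest approach was the GABA permease as number 13 for LysP. The order depends on the measure, since by Pearson's r over the 6 arrays, which ignores the size of a change, 1 of these 18 genes was again among the 3 nearest.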

How the data were processed

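Total RNA from mycelia was hybridised to single-colour NimbleGen arrays. Values deposited by the authors were log2 signals from RMA, 1 for each gene on each array. Which RMA settings were used is not stated in the labels or methods. A further table of group means, SD, folds and p- and F-values by the authors stayed unused. All array columns entered the fit (0 left over).

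Groups were taken from sample titles. The 3 groups were fitted together to the unchanged values of all 9126 features with limma 3.58.1 in R 4.3.3 (eBayes defaults, 3 residual and 5.10 prior degrees of freedom), with Benjamini-Hochberg adjustment over all features. The precision is limited by 2 arrays per group. The code of the fit was run on simulated data with independent normal noise and planted shifts on lactose. Such data meet the assumptions of the fit, so they cannot test them for low signals or mixed mycelia.

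The 6 genes and all lists were chosen with earlier results of these data known. All 6 genes are named in full, as are the largest differences of the 16 others, the 2 nearest genes on each side (9094 features had a place in the RefSeq table, assembly v2.0 of QM6a), and the 3 genes most like each. Genes elsewhere in the stretch around the PotE genes were named after their values were seen. A wider list by protein similarity was planned but not made, because no protein table was at hand. Python 3.11.15 was used for counts and figures.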

Additional observations from a re-analysis of the deposited data

How the results depend on the processing

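For the 6 transporters, no called difference changed sign under the alternatives run. Of their recomputed lactose differences, 11 moved by more than the spread between replicates and 137 by less. The 11 arose with signals raised to the low end or quantiles normalized again. Most of the 137 could not have moved by more, so their number does not measure stability. The other models and the filter leave a difference of group means unchanged. Leaving out 1 of 2 arrays shifts a mean by less than that spread. Between glucose and glycerol 91 kept their call or lack of one and 1 did not, TRIRE2_123611 at over 1.5-fold (0.67). Without the dimmest 25% of features, 1 of the 5 higher genes, 0 of the 2 genes called between glucose and glycerol and 5 of the 10 higher genes of the other list were called. The filter takes the mean over all arrays, so genes with a low mean were left untested, also where they were bright on lactose. Of the 6 transporters, TRIRE2_123611 and TRIRE2_123718 passed it. Over 4-fold, 4 higher and 2 lower genes of the other list were called on lactose, and 4 of its 10 calls between glucose and glycerol were left. Among the genes most like each transporter, 1 of 18 was also chosen by Pearson's r. With the replicate number as a block, the counts were the same: 5 higher, 1 lower and 2 called between glucose and glycerol, and 10, 6 and 10 in the other list. Deviations of same-numbered arrays correlated with r = -0.01 (lactose and glucose), -0.14 (lactose and glycerol) and 0.07 (glucose and glycerol), which does not show a pairing. Leaving out 1 array, the other list held 9 to 10 higher genes, and the 6 transporters kept their counts. The counts for a family by protein similarity were not run. Low signals, under 4.66, limit what can be read from a fold change.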

Other observations

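Some transporters for other nitrogen compounds in the study's list went in either direction on lactose. Of 8 picked by their annotation after the values were seen, 5 were higher on lactose than on glucose and glycerol and 3 were lower. All 8 were called by the way the list was made, since the study chose it on these arrays. Of all features, 10.2% were called higher and 7.28% lower. The 8 are not a full set of nitrogen transporters. The higher ones were a pair of allantoate permease genes (TRIRE2_81022, 4.22- and 3.30-fold, and TRIRE2_70860, 3.93- and 3.63-fold) and 3 oligopeptide transporter genes, of which TRIRE2_46794 differed most from glycerol (4.22- and 12.7-fold). The lower ones were an H+/oligopeptide transporter gene (TRIRE2_80879, 81.9- and 45.5-fold), a peptide transporter gene (TRIRE2_80086, 15.5- and 2.06-fold) and a cytosine/purine permease gene (TRIRE2_52489, 6.55- and 4.45-fold).

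Enzymes on either side of γ-aminobutyrate, also named after their values were seen, stood in opposite orders. 4-Aminobutyrate aminotransferase, which breaks γ-aminobutyrate down (TRIRE2_121405), had the order of the GABA permease TRIRE2_70098, with mean log2 signals of 12.14 on lactose, 10.02 on glycerol and 7.62 on glucose. Glutamate decarboxylase, which makes γ-aminobutyrate (TRIRE2_121664), had the reverse order, with 7.25 on lactose, 8.96 on glycerol and 10.69 on glucose. The other GABA permease gene, TRIRE2_58511, did not share the order of TRIRE2_70098. Its glucose minus glycerol difference was 1.96 log2 units, against -2.40 for the aminotransferase and -2.79 for TRIRE2_70098. Among all features called higher on lactose, 15.0% were lower on glucose than on glycerol. Among those called lower on lactose, 17.5% were higher on glucose. A link between these enzymes and the permeases was not tested.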
